A study of Mus musculus with 6 samples.

Results

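The 39 genes described here encode enzymes that burn fatty acids in mitochondria and peroxisomes, make or use ketone bodies, or answer to the nuclear receptor PPAR-alpha. They were listed by gene symbol for their known function, by a rule that uses no measured level, and all 39 were found among the 22611 genes of the expression table. The rule set the carnitine carrier *Slc25a20* aside. By role they comprised 4 acyl-CoA synthetases, 5 enzymes of the carnitine shuttle, 5 acyl-CoA dehydrogenases, 5 mitochondrial enzymes of the later steps of the spiral, 4 auxiliary enzymes for double bonds and 3 electron transfer flavoprotein genes. The others were 6 peroxisomal genes, 2 enzymes of ketone bodies, 3 acyl-CoA thioesterases and 2 secreted signals, *Angptl4* and *Fgf1*.

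The libraries hold RNA of duodenal epithelial cells, 1 library for each of 3 WT mice and 3 *Esrra*-/- mice, which the sample labels call ESRRAKO. *Esrra* encodes the estrogen-related receptor alpha (ESRRA), an orphan nuclear receptor that controls mitochondrial genes. The mutation is a germline null allele, so ESRRA was missing from every tissue of the animal and not from the epithelium alone. The WT animals were littermates of the mutants, all were fed a high-fat diet for several weeks, and both sexes were used. The *Esrra*-/- and floxed alleles were bred together in a colony that carried the *Villin-CreERT2* transgene, which is driven in intestinal epithelium, and whether the WT animals here carried a floxed allele or the transgene is not given in the sources used here. The ages of the animals at collection are likewise not given there. The epithelial sheet was released from the mesenchyme with EDTA, and transcripts of villus and of crypt markers were found in each library. The comparison asks whether loss of ESRRA changed the levels of these enzymes.

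A fatty acid is first activated to an acyl-CoA, passed into the mitochondrion on carnitine, and then shortened by repeated rounds of oxidation, hydration, oxidation and thiolysis. Electrons leave through electron transfer flavoprotein to the respiratory chain, and the acetyl-CoA that is released can enter the citric acid cycle or be made into ketone bodies. Peroxisomes run a parallel pathway for very long, branched and dicarboxylic chains. PPAR-alpha, a receptor for fatty acids, raises many of these genes in liver and in enterocytes exposed to dietary fat, and ESRRA is known in heart and muscle as a regulator of an overlapping set.

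*Esrra* itself served as the check of the labels. It measured 49.4, 73.5 and 104 FPKM (sequenced fragments scaled to transcript length and to the fragments mapped in the library) in the WT libraries and 10.4, 9.42 and 8.72 in the *Esrra*-/- libraries, 12.6% of the WT mean (adjusted p = 0.0215, limma). The depth of each library could not be read from these values, whose sums ranged from 707094 to 999902 per library. Defining markers of the epithelium were present, with summed villus enterocyte markers between 41035 and 69731 FPKM. The adipocyte markers *Adipoq* and *Lep* were at 0 in all 6 libraries, and summed adipocyte, mesenchymal and pancreatic acinar markers reached no more than 1.51, 6.87 and 3.62 FPKM. Immune markers were present, with sums of 1409, 1437 and 302 FPKM in WT and 728, 1398 and 2120 in *Esrra*-/- libraries and 0 of 7 called. Hepatocyte markers summed to between 69.1 and 136 FPKM, nearly all of it *Cps1*, which intestine also expresses, and of the 2 that could be tested *Ttr* was called lower (-1.12). Markers of the cell types of the epithelium leaned in different directions, although none of those called was below 0.05 after adjustment. The log2 fold change of *Esrra*-/- over WT was above 0 for 12 of 12 villus enterocyte markers, with a median of 0.27 and none called. It was below 0 for 8 of 8 crypt markers, with a median of -0.59 and none called. Of these, 2 (25%) had an unadjusted limma p under 0.05, against 10.8% of all genes. For Paneth markers it was below 0 for 6 of 6. *Lyz1*, *Defa24*, *Defa17* and *Ang4* were called lower, 66.7% of the Paneth markers against 3.28% of all genes. In these bulk samples fewer cells of a type and less RNA per cell cannot be told apart. Y-linked transcripts were at 0.0487 and 0.222 FPKM in WT replicate 3 and *Esrra*-/- replicate 3 and between 27.3 and 46.7 in the other 4 libraries, so each genotype held 2 libraries with Y-linked transcripts and 1 without.

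The promoters were searched for the sequences that ESRRA and PPAR-alpha are known to recognise, because ESRRA was the factor removed and PPAR-alpha is a known regulator of these genes. RefSeq promoters of build GRCm38.p6, each of 300 bases (250 before and 50 after the start), were given for 31 of the 39 genes. The search covered both strands. TCAAGGTCA, the extended ESRRA sequence, was in the promoters of 0 members and in 0.423% of all 32851 promoters. The shorter AAGGTCA was in 1 of the 34 member promoters, 2.94% against 4.72% of all promoters. The direct repeat of AGGTCA with 1 base between the copies, which PPAR-alpha binds with its partner RXR, was in 0 member promoters and in 0.0396% of all. AGGTCA alone, which overlaps the other motifs and was searched only after the data were seen, was in the promoters of 5 genes, 14.7% of member promoters against 16.3% of all. These shares describe letters in a short window and say nothing of binding.

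The promoter with AAGGTCA belongs to *Acadm*, the medium-chain acyl-CoA dehydrogenase, and its 250 bases before the start (chr3:153944644-153944893, GRCm38.p6, minus strand) are printed in the direction of the gene. The 4 windows below it are those of the other genes with AGGTCA, each shown with 30 bases to either side. They lie at chr11:70015480-70015545 (*Acadvl*, minus strand), chr13:91741381-91741446 (*Acot12*, plus), chr19:3323177-3323242 (*Cpt1a*, plus) and chr7:140116469-140116534 (*Echs1*, minus). All are written 5′ to 3′ along the gene, with the matched letters in capitals, and TGACCT marks a match on the opposite strand.
Acadm: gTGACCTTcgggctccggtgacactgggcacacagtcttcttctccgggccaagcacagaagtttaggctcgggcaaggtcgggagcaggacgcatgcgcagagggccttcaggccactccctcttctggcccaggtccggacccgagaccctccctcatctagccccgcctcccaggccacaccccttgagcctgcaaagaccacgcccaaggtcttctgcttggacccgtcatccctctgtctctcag
Acadvl: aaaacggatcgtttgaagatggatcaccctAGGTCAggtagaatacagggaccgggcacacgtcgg
Acot12: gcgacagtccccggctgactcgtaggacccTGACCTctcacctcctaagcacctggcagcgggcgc
Cpt1a: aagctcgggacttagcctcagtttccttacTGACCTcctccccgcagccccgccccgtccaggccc
Echs1: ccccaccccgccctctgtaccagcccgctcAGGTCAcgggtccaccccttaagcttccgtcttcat
In *Acadm* the match began 249 bases before the start, at the far edge of the window. Of these 5 genes, *Acot12* was called higher in *Esrra*-/- epithelium and the other 4 were not called, with log2 fold changes of 0.05 for *Acadm*, 0.07 for *Acadvl*, 0.02 for *Cpt1a* and -0.35 for *Echs1*.

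A gene was called when its unadjusted limma p was under 0.05 and its log2 fold change was beyond 0.58 in either direction, the thresholds of the study. Genes were tested when their mean FPKM was above 1, and fold changes are on log2(FPKM + 0.1). Of the 39 genes, 38 were tested. Few of them differed between genotypes. *Acat1* was called lower, 2.63% of the members tested against 3.28% of all 10596 genes. *Acot12* was called higher, again 2.63% against 1.35% of all genes, and 36 members were not called. Without the fold threshold, 4 members (10.5%) had p under 0.05, namely *Acat1*, *Acsl1*, *Acot12* and *Crot*, against 10.8% of all genes. Which members passed changed with the setting. Without WT replicate 2 only *Acat1* and *Acsl1* did, and with the replicate number as a block *Acad11*, *Angptl4*, *Bdh1* and *Echs1* were added to the 4. After Benjamini-Hochberg adjustment over all genes 0 members were below 0.05 in limma, against 0.0378% of all genes. The median log2 fold change of members was 0.05, beside 0.03 for all genes tested. The log2 fold change was below 0 for 15 members and above 0 for 23, beside 4842 and 5754 of all 10596 genes. Within 0.58 of 0 lay 34 of 38 members and 9743 of all genes. The 3 WT and 3 *Esrra*-/- values did not overlap for 3 members, *Acat1*, *Acsl1* and *Crot*, which is 7.89% of members against 17.6% of all genes. Among all genes 9.14% had every mutant value below every WT value, as *Acat1* did, and 8.45% had every mutant value above, as *Acsl1* and *Crot* did. The shares called and the shares with p under 0.05 were near those of the rest of the transcriptome, and the share without overlap was smaller.

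**Figure D1:**
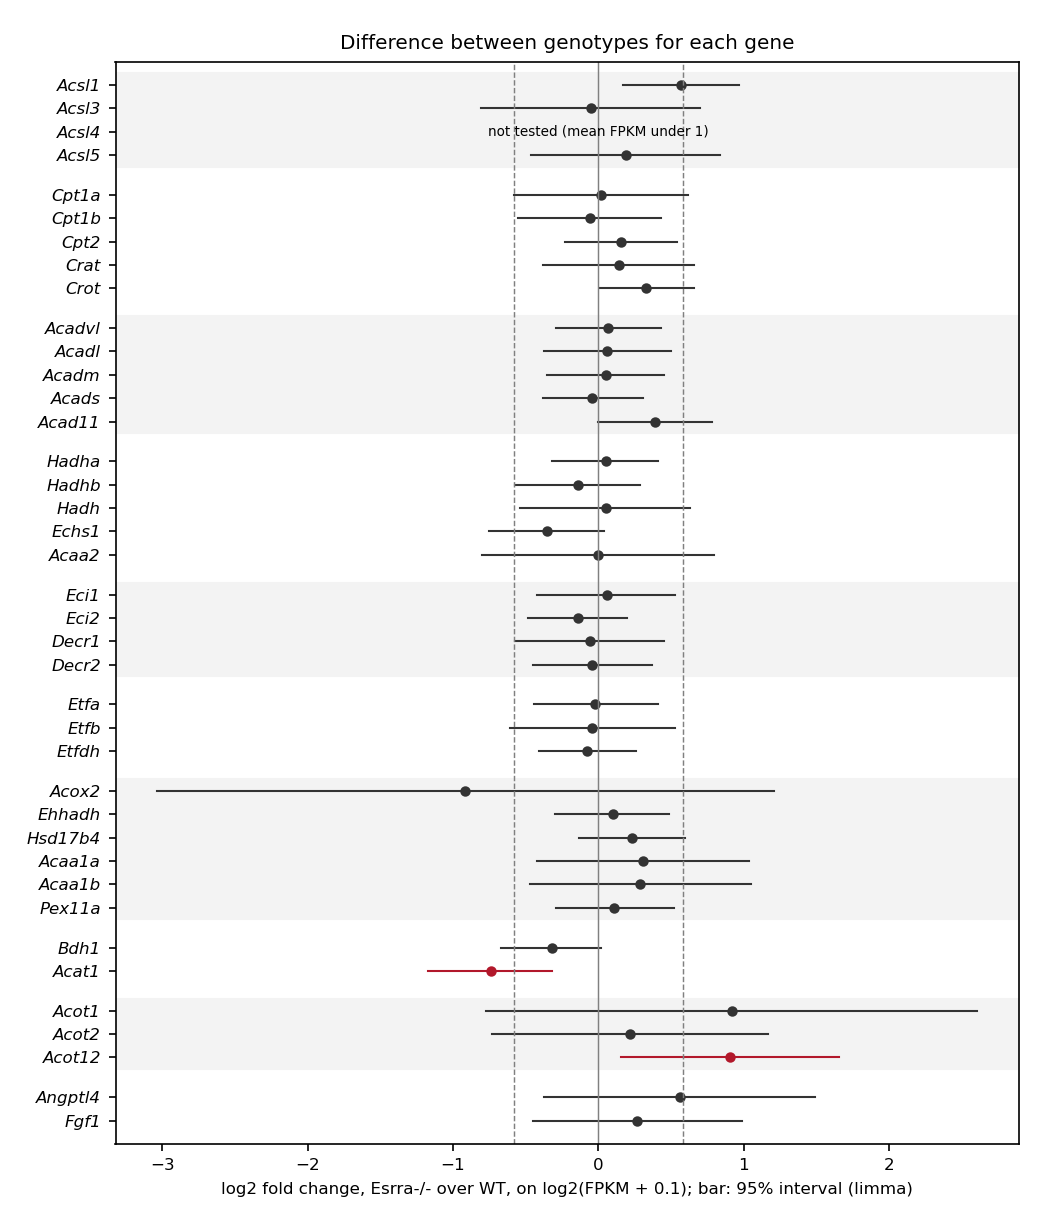
Log2 fold change (*Esrra*-/- over WT, on log2(FPKM + 0.1)) of each gene with its 95% interval from limma, in order of role, with dashed lines at 0.58 in either direction. The red points are the 2 called genes, *Acat1* at -0.74 and *Acot12* at 0.91, and *Acsl4* was not tested.

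Transcripts of a single synthetase prevailed in activation. *Acsl5*, an acyl-CoA synthetase abundant in intestine, measured 1001, 814 and 1421 FPKM in WT and 1372, 948 and 1324 in *Esrra*-/- libraries. It supplied between 94.6% and 96.7% of the FPKM of the 4 synthetase genes and ranked 71 of all genes by mean FPKM. Its groups overlapped (log2 fold change 0.19 ± 0.28 (SE)). *Acsl1*, the synthetase best known from liver and adipose tissue and itself a PPAR-alpha target, measured 21.2, 18.2 and 26.9 FPKM in WT and 34.8, 29.2 and 33.3 in *Esrra*-/- libraries. All 3 mutant values were above all 3 WT values. The difference of 0.57 ± 0.17 (95% interval 0.17 to 0.97, adjusted p = 0.342, limma) fell just short of the fold threshold, and it passed that threshold without WT replicate 3 (0.72), without *Esrra*-/- replicate 2 (0.64) and among the 4 libraries with Y-linked transcripts (0.70). The FPKM of *Acsl5* was 47.3, 44.7 and 52.7 times that of *Acsl1* in WT and 39.4, 32.5 and 39.8 times in *Esrra*-/- libraries, so this ratio was lower in every mutant. *Acsl3*, a synthetase of the endoplasmic reticulum and lipid droplets, averaged 20.2 ± 5.95 (SD, n = 3) and 19.9 ± 6.98 FPKM. *Acsl4*, which prefers arachidonate, was too low to be tested at 0.581, 0.654 and 0.452 FPKM in WT and 0.615, 0.64 and 0.624 in *Esrra*-/- libraries.

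**Figure D2:**
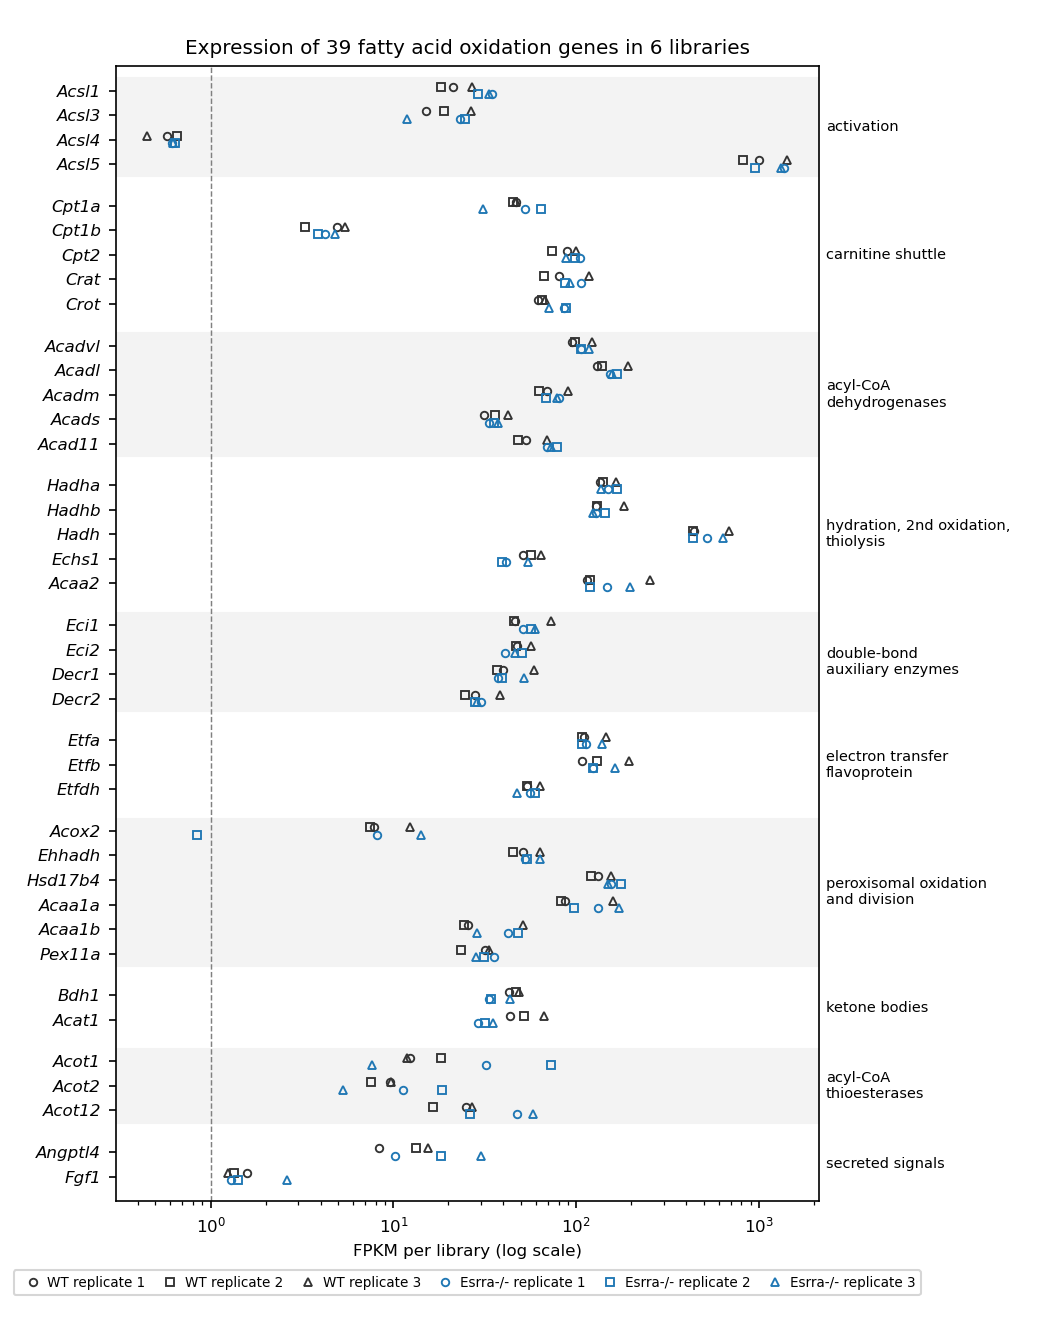
FPKM on a log axis of each of the 39 genes in the 6 libraries, black for WT and blue for *Esrra*-/-, with the symbol giving the replicate and the dashed line at 1 FPKM. *Acsl5* and *Hadh* stand highest, *Acsl4* lies below the line, and the widest spreads among mutants are those of *Acox2* and *Acot1*.

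In the carnitine shuttle 0 of 5 genes were called by limma, and 1 (20%), *Crot*, had p under 0.05, against 10.8% of all genes. *Cpt1a*, the outer-membrane carnitine palmitoyltransferase whose inhibition by malonyl-CoA sets the rate of entry, made up 86.6% to 94.3% of the FPKM of *Cpt1a* and the muscle form *Cpt1b*. Its WT values were close together at 46.9, 45.2 and 46.9 FPKM, and its *Esrra*-/- values of 52.3, 63.8 and 31 lay on both sides of them. The mean difference of *Cpt1a* was 0.02 ± 0.25. *Cpt2*, the inner-membrane partner and by its mean over the 6 libraries the most abundant gene of the shuttle (92.3 FPKM, with *Crat* at 91.5), measured 89, 73.4 and 100 FPKM in WT and 105, 98.4 and 87.8 in *Esrra*-/- libraries, with a difference of 0.16 ± 0.16. *Crot*, the peroxisomal carnitine octanoyltransferase that hands shortened chains on to mitochondria, measured 61.7, 64.6 and 67.4 in WT and 86.2, 87.5 and 71 in *Esrra*-/- libraries. Its groups did not overlap, by a margin that rested on mutant replicate 3, and the difference was 0.33 ± 0.14 (95% interval 0.01 to 0.66, adjusted p = 0.456, limma). The unadjusted limma p of *Crot* was above 0.05 with quantile normalization (0.158). It was also above 0.05 with any library but *Esrra*-/- replicate 3 left out (0.0544 to 0.149). *Crat*, which exchanges acetyl groups with carnitine, averaged 88.1 ± 26.3 and 94.9 ± 9.66 FPKM.

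The acyl-CoA dehydrogenases, which open each round according to chain length, kept similar proportions in the 6 libraries. Of the summed FPKM of *Acadvl*, *Acadl*, *Acadm* and *Acads* (very long, long, medium and short chain), *Acadl* supplied 40% to 44.2% in the 6 libraries and *Acads* 8.95% to 10.7%. *Acadl* measured 130, 138 and 193 FPKM in WT and 152, 167 and 157 in *Esrra*-/- libraries. The differences of these 4 genes lay between -0.04 and 0.07, and the widest of their intervals, that of *Acadl*, ran from -0.37 to 0.50. *Acad11*, a dehydrogenase of longer chains counted here with the peroxisomal genes, averaged 56.6 ± 11 FPKM in WT and 73.4 ± 4.93 in *Esrra*-/- libraries. Its difference of 0.39 ± 0.17 (adjusted p = 0.47, limma) was not called. The unadjusted limma p of *Acad11* was under 0.05 with no filter on low values (0.0422), the replicate block (0.0415) and the Y-linked covariate (0.0282). The same held among the libraries with Y-linked transcripts (0.00848) and without WT replicate 3 (0.00743). Its difference lay between 0.28 and 0.55 in every setting, short of the fold threshold.

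The later steps of the mitochondrial spiral also gave 0 called genes of 5. *Hadh*, which oxidises short-chain hydroxyacyl-CoA, was the most abundant at 440, 435 and 686 FPKM in WT and 520, 436 and 636 in *Esrra*-/- libraries, a difference of 0.05 ± 0.25. *Hadha* and *Hadhb* encode the subunits of the trifunctional protein, which hydrates, oxidises and cleaves long chains. They lie head to head on chromosome 5 with 85 bases between them in the mm9 annotation. Their FPKM ratio was 1.04, 1.08 and 0.901 in WT and 1.16, 1.16 and 1.12 in *Esrra*-/- libraries. *Acaa2*, the mitochondrial thiolase, spread over 114 to 254 FPKM in WT and 119 to 196 in *Esrra*-/- libraries, with a difference of 0.00 ± 0.34. *Echs1*, the short-chain hydratase, had the lowest difference of these 5 genes at -0.35 ± 0.17 (57.2 ± 6.37 against 45 ± 8.12 FPKM, adjusted p = 0.506, limma), and its groups overlapped. Its unadjusted limma p was under 0.05 with quantile normalization (0.00645), the replicate block (0.0144) and the Y-linked covariate (0.01). The same held among the libraries with Y-linked transcripts (0.0156) and without *Esrra*-/- replicate 3 (0.0148). Its difference lay between -0.50 and -0.26 in every setting, short of the fold threshold, with adjusted p of 0.15 or more.

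Neither the auxiliary enzymes nor the electron carriers held a called gene. *Eci1* and *Eci2*, the isomerases that move double bonds, and *Decr1* and *Decr2*, the reductases for dienoyl chains in mitochondria and peroxisomes, had differences between -0.14 and 0.06. *Eci1* was the most abundant by its mean over the 6 libraries (55.3 FPKM, with *Eci2* at 48.1). It measured 46.1, 45.7 and 72.8 FPKM in WT and 51.3, 56.4 and 59.6 in *Esrra*-/- libraries. In WT replicates 1 and 2 *Eci2* was higher, at 47.6 and 47.1 FPKM. *Etfa*, *Etfb* and *Etfdh*, which carry electrons to ubiquinone, had differences between -0.08 and -0.02. *Etfb* measured 108, 130 and 194 FPKM in WT and 124, 124 and 163 in *Esrra*-/- libraries. Of the 15 mitochondrial enzymes from *Cpt2* through the spiral to *Etfdh*, the main limma fit called 0 and gave 0 a p under 0.05 (10.8% of all genes). In some other settings *Echs1* was under 0.05, as given above. The median difference of the 15 was 0.00 and their range was -0.35 to 0.16. Their FPKM summed to 1912 ± 453 in WT and 1898 ± 167 in *Esrra*-/- libraries (SD, n = 3).

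Among the peroxisomal members none was called by limma, where 3.28% of all genes were called lower and 1.35% higher. *Crot* alone (10%) had p under 0.05, against 10.8% of all genes, and not in every setting. Over the 10 members that act in peroxisomes (*Crot*, *Acad11*, *Eci2*, *Decr2* and the 6 of the peroxisomal role), 7 had a log2 fold change above 0. Of all 10596 genes tested 5754 did. The median difference of these 10 members was 0.17, beside 0.03 for all genes. *Hsd17b4*, the bifunctional enzyme for branched and very long chains, measured 132, 121 and 155 FPKM in WT and 154, 175 and 150 in *Esrra*-/- libraries, a difference of 0.23 ± 0.16. *Ehhadh*, the bifunctional enzyme for straight and dicarboxylic chains and a classical PPAR-alpha target, averaged 53.1 ± 9.61 and 56.4 ± 6.12 FPKM. *Pex11a*, a peroxisome division factor that PPAR-alpha induces, averaged 29.5 ± 5.27 and 31.7 ± 3.63 FPKM. The thiolases *Acaa1a* and *Acaa1b* had differences of 0.31 ± 0.31 and 0.29 ± 0.33, and since 43.6% and 57.4% of their 31-base stretches also occur in other genes, mostly in each other, their separate levels are uncertain. Their sum was 143 ± 58.6 FPKM in WT and 173 ± 27.3 in *Esrra*-/- libraries.

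*Acox2*, the oxidase of branched chains and bile acid intermediates, was the most unequal gene within a genotype. It measured 7.85, 7.47 and 12.3 FPKM in WT and 8.14, 0.845 and 14.1 in *Esrra*-/- libraries, so the highest mutant value was 16.7 times the lowest. *Esrra*-/- replicate 2 was the low sample, and the other 2 mutants lay within or above the WT values. The difference was -0.92 ± 0.90 with all libraries and 0.26 without that library. *Acox2* and the next 2 genes with such spread, *Acot1* and *Acot2*, are described in full because of values already seen.

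The ketone body genes held the member that was called lower. *Acat1*, the mitochondrial acetoacetyl-CoA thiolase, works in making and in using ketone bodies and in the breakdown of isoleucine. It measured 43.4, 51.9 and 66.9 FPKM in WT and 29.1, 31.5 and 35 in *Esrra*-/- libraries. Each mutant value was below each WT value. The *Esrra*-/- mean was 58.9% of the WT mean, and the difference was -0.74 ± 0.18 (95% interval -1.17 to -0.32, adjusted p = 0.289, limma). *Acat1* was called lower with any single library left out (-0.89 to -0.58) and among the libraries with Y-linked transcripts, with adjusted p-values of 0.0652 to 0.761 across the settings tried. *Bdh1*, which interconverts acetoacetate and hydroxybutyrate, measured 42.8, 47 and 48.4 FPKM in WT and 33.4, 34.2 and 43.6 in *Esrra*-/- libraries. Only mutant replicate 3 reached the WT values, and the difference of *Bdh1* was -0.32 ± 0.15 (adjusted p = 0.486, limma). The unadjusted limma p of *Bdh1* was under 0.05 with quantile normalization (0.00884), the replicate block (0.0222) and the Y-linked covariate (0.0185), and among the libraries with Y-linked transcripts (0.0152). Its difference lay between -0.44 and -0.25 in every setting, short of the fold threshold. The sum of both genes was 86.2, 99 and 115 FPKM in WT and 62.4, 65.6 and 78.5 in *Esrra*-/- libraries.

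Of 7 further ketone body genes 5 were tested, with a median difference of -0.04, 3 below 0 and 2 above. The 1 called lower (20%, against 3.28% of all genes) was *Oxct1*, which activates acetoacetate in tissues that burn ketone bodies. It measured 27.2, 24 and 13.8 FPKM in WT and 10.1, 10.8 and 15 in *Esrra*-/- libraries. The groups overlapped, since WT replicate 3 fell below mutant replicate 3, and the difference was -0.81 ± 0.28 (adjusted p = 0.387, limma). The call of *Oxct1* was lost without WT replicate 1 or 2 or *Esrra*-/- replicate 1 or 2 (-0.75 to -0.62), and the difference was larger without WT replicate 3 (-1.11), without *Esrra*-/- replicate 3 (-0.99) and among the 4 libraries with Y-linked transcripts (-1.28). The summed crypt markers were 274, 331 and 206 FPKM in WT and 170, 249 and 106 in *Esrra*-/- libraries, and the summed Paneth markers were 11222, 19874 and 9802 against 6018, 8409 and 1917. The part of these cell types in the values of *Acat1*, *Bdh1* and *Oxct1* was not tested. *Acat1* was at its highest in WT replicate 3, the WT library with the lowest crypt and Paneth sums, and *Oxct1* was at its lowest among WT there. Mutant replicate 3, which had the lowest crypt and Paneth sums of all 6 libraries, held the highest *Acat1* and *Oxct1* values among the mutants.

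**Figure D3:**
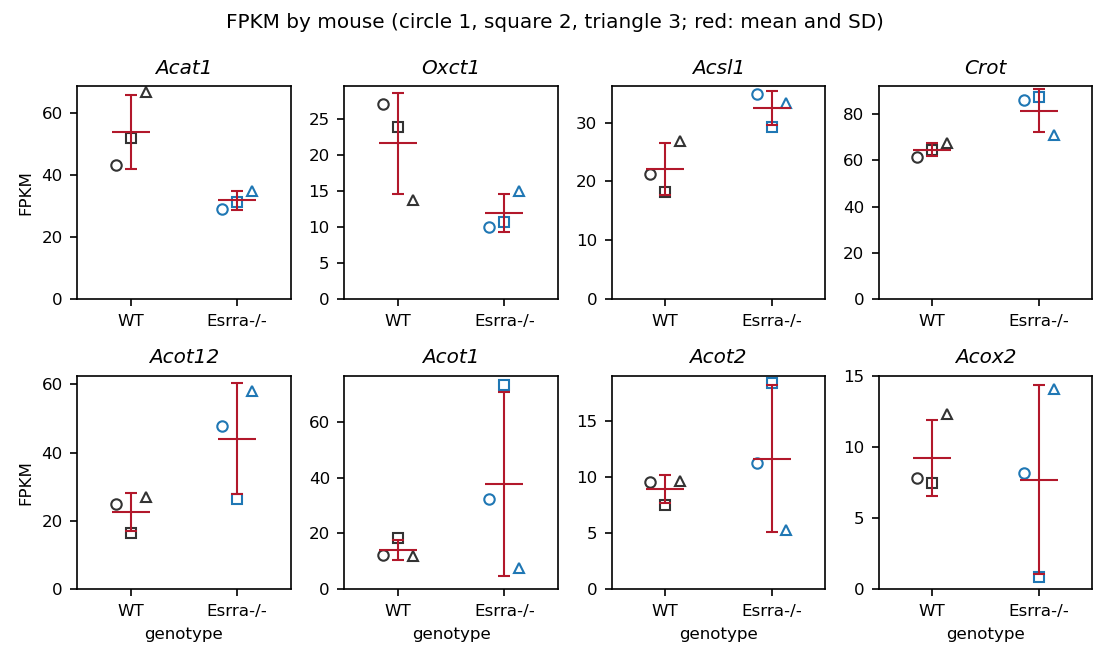
FPKM of 8 genes by mouse on axes that start at 0, with the replicate given by the symbol and the mean and SD of each genotype in red. The groups do not overlap for *Acat1*, *Acsl1* and *Crot*, overlap slightly for *Oxct1* and *Acot12*, and overlap widely for *Acot1*, *Acot2* and *Acox2*.

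The thioesterases, which split acyl-CoA back into free acid and CoA, held the member that was called higher. *Acot12*, a cytosolic acetyl-CoA hydrolase, measured 24.9, 16.4 and 26.9 FPKM in WT and 47.7, 26.3 and 58.2 in *Esrra*-/- libraries. The groups overlapped because mutant replicate 2 lay just under the highest WT value. Its mean was 1.94 times that of WT, and the difference was 0.91 ± 0.32 (95% interval 0.16 to 1.66, adjusted p = 0.393, limma). The call was lost without WT replicate 2 (0.69), *Esrra*-/- replicate 1 (0.81) or *Esrra*-/- replicate 3 (0.67), and among the 4 libraries with Y-linked transcripts (0.81). Villus enterocyte markers summed to 62400, 51020 and 69731 FPKM in the mutants against 42920, 41035 and 65951 in WT. Within each genotype these sums were in the same order as *Acot12*. Across genotypes they were not, since WT replicate 3 (65951) was above mutant replicate 1 (62400) and had less *Acot12* (26.9 against 47.7). The part of villus cells in the values of *Acot12* was not tested. The ratio of *Acot12* to *Acat1* was 0.574, 0.316 and 0.402 in WT and 1.64, 0.836 and 1.66 in *Esrra*-/- libraries. It divides the member called higher by the member called lower and was formed after the calls were seen. Its separation of the genotypes therefore adds nothing to those calls.

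*Acot1*, the cytosolic long-chain thioesterase and a strong PPAR-alpha target, measured 12.3, 18.2 and 11.8 FPKM in WT and 32.2, 73.1 and 7.68 in *Esrra*-/- libraries. Mutant replicate 2 was far above the WT values and mutant replicate 3 below them, so the difference of 0.92 ± 0.72 was not called (adjusted p = 0.676, limma). It was 0.19 without *Esrra*-/- replicate 2 and 1.81 without *Esrra*-/- replicate 3, and in the latter case it was called higher. *Acot2*, its mitochondrial neighbour, followed the same order among mutants with 11.3, 18.4 and 5.29 FPKM beside 9.57, 7.5 and 9.7 in WT. The transcripts share sequence, with 42% of the 31-base stretches of *Acot1* also found in *Acot2*, and reads may be split between them. Their sum was 21.9, 25.7 and 21.5 FPKM in WT and 43.5, 91.4 and 13 in *Esrra*-/- libraries.

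*Angptl4*, a secreted inhibitor of lipoprotein lipase and a PPAR target, measured 8.39, 13.3 and 15.4 FPKM in WT and 10.2, 18.1 and 30 in *Esrra*-/- libraries, a difference of 0.56 ± 0.40. It was called higher only without *Esrra*-/- replicate 1, among the settings tried. *Fgf1*, a fibroblast growth factor listed with the PPAR targets, was near the limit of the test at 1.4 ± 0.169 and 1.78 ± 0.736 FPKM. Receptor transcripts were measured beside them. *Ppara* averaged 4.66 ± 0.694 and 5.14 ± 0.599 FPKM, *Ppard* 62.6 ± 9.77 and 56.4 ± 26.7, and the coactivator *Ppargc1a* 10.4 ± 2.63 and 10.2 ± 3.37, and none of these was called with all libraries. *Ppard* passed the thresholds as lower without *Esrra*-/- replicate 3 (-0.60) and among the 4 libraries with Y-linked transcripts (-0.65).

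Levels also varied between animals of a genotype. WT replicate 3 held the highest value of the 6 libraries for 23 of 38 members and WT replicate 2 the lowest for 18. The median deviation of members from each gene's own mean, on the log2 scale, was -0.15, -0.20 and 0.26 in WT and 0.01, -0.01 and 0.08 in *Esrra*-/- libraries. The same median over all genes stayed between -0.02 and 0.04. For villus enterocyte markers it was -0.19, -0.33 and 0.15 in WT and 0.18, -0.16 and 0.27 in *Esrra*-/- libraries, so these markers too were highest in replicate 3 of each genotype. *Acot1*, *Acot2* and *Cpt1a*, picked after their values were seen, had another order. Their median deviation was 0.23, 0.93 and -0.84 in the mutants and between -0.07 and 0.01 in WT.

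**Figure D4:**
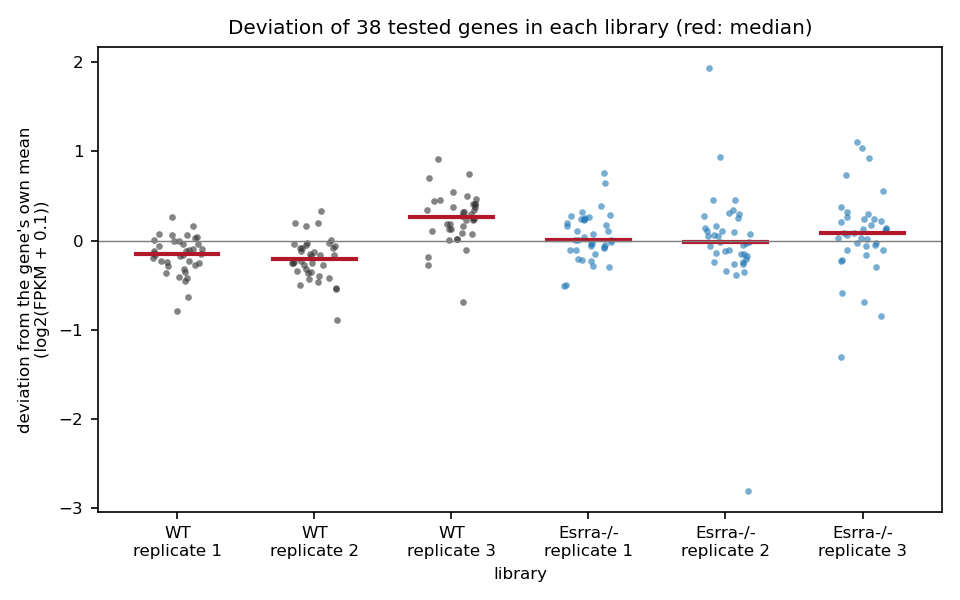
Deviation of each of the 38 tested genes from its own mean (log2(FPKM + 0.1)) in the 6 libraries, black for WT and blue for *Esrra*-/-, with the median of each library in red. The medians are lowest in WT replicate 2 (-0.20) and highest in WT replicate 3 (0.26), and the mutant medians lie between them.

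Other genes of these pathways were read against the same shares of all genes, 3.28% called lower and 1.35% called higher. Of 32 further fatty acid oxidation genes 29 were tested, with 1 (3.45%) called lower, 0 called higher and a median difference of 0.12. Among them 4 (13.8%) had p under 0.05, against 10.8% of all genes, and the groups did not overlap for 6 (20.7%), against 17.6% of all genes. Besides *Mcee* those with p under 0.05 were the peroxisomal oxidase *Acox3* (-0.42), the peroxisomal reductase *Pecr* (-0.43) and the peroxisomal transporter *Abcd3* (0.43), named after their values were seen, none of which passed the fold threshold. The called gene was *Mcee*, the methylmalonyl-CoA epimerase of propionate breakdown, at 17.2, 17.6 and 21.7 FPKM in WT and 11.4, 13 and 11.8 in *Esrra*-/- libraries (-0.63 ± 0.14, adjusted p = 0.238, limma). Without WT replicate 3 (-0.52) and among the 4 libraries with Y-linked transcripts (-0.51) the difference of *Mcee* kept its p under 0.05 and fell short of the fold threshold. Peroxisome biogenesis genes (16 tested) had 0 calls by limma and 0 with p under 0.05, with a median of 0.09 and 3 (18.8%) whose groups did not overlap. PPAR receptors, partners and further targets (20 tested, among them the member *Acsl1*) had 0 calls by limma and a median of 0.12. The 1 with p under 0.05 and the 1 (5%) whose groups did not overlap were both *Acsl1*, already described.

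Several members share sequence with genes outside the set. *Acadvl* shares 32.3% of its 31-base stretches with *Dvl2*, which lies on the opposite strand, and *Eci2* shares 12.8% and *Acad11* 8.27% with other genes, so parts of their values may belong to those genes. *Acat1*, *Acot12*, *Acsl1* and *Crot* shared 0% with any other gene.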

How the data were processed

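Libraries from duodenal epithelium of 3 WT and 3 *Esrra*-/- mice were compared. According to the study's methods, the authors checked reads with FastQC 0.11.3, aligned them to mm9 with kallisto 2.1.0 and obtained FPKM with DESeq2 2.2.1. The annotation is not given in the sources used here. The deposited FPKM are normalized, so no count test was run and counting error is unknown. A deposited table of the authors' own comparison (fold changes and p-values) was not used. FPKM were tested as log2(FPKM + 0.1) with limma 3.58.1 (R 4.3.3, lmFit and eBayes with trend), for the 10596 genes with mean FPKM above 1, with Benjamini-Hochberg adjustment over all of them and no covariate. The fit was tested on simulated data. Errors after ± are SD for FPKM and SE for log2 fold changes.

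The rule for the members names genes by function and uses no measured level, but members and lists were drawn up with earlier results of these data known. Values in each library are given for members with p under 0.05, members whose groups do not overlap, the most abundant member of each role and those at or under a mean FPKM of 1. Of other genes, *Esrra*, called pathway list genes and *Ppara*, *Ppard* and *Ppargc1a* were named, and some further genes are not reported here. Genes named beyond that rule were chosen after their values were seen. Alternatives were another pseudocount, other filters and scalings, no trend, a replicate block, Y-linked transcripts as a covariate, only the libraries with them, and each library left out. Promoters came from RefSeq (GRCm38.p6), and shared 31-base stretches and positions from GENCODE M1 transcripts on mm9. Protein sequences were not used here.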

Additional observations from a re-analysis of the deposited data

How the results depend on the processing

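With no filter on low values 528 genes of the whole table were called lower and 277 higher, and at an adjusted p under 0.05 there were 2 and 2, with 0 and 0 members. Leaving out each library gave 252 to 537 genes lower, the highest without *Esrra*-/- replicate 2, and 146 to 214 higher. *Acat1* was the member called lower under every setting but the adjusted threshold. Members called higher numbered 4 among the libraries with Y-linked transcripts (*Acaa1b*, *Acot1*, *Acot2* and *Acsl1*) and 0 to 4 with a library left out: 0 without WT replicate 2, 4 without WT replicate 3 (*Acaa1a*, *Acaa1b*, *Acot12* and *Acsl1*), *Angptl4* alone without *Esrra*-/- replicate 1, *Acot12* and *Acsl1* without replicate 2, and *Acot1* and *Acot2* without replicate 3. The cause was not tested. The median difference of members stayed between -0.04 and 0.20.

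The sign of several genes changed, most of them near 0. Quantile normalization gave *Cpt1a* -0.03, and the libraries with Y-linked transcripts gave *Acsl3* 0.50, *Cpt1b* 0.01, *Acads* 0.04, *Hadhb* 0.08, *Decr2* 0.15, *Etfa* 0.02, *Etfb* 0.07, *Etfdh* 0.09 and *Fgf1* -0.10. With each library left out the ranges that crossed 0 were *Acsl3* -0.25 to 0.28, *Cpt1a* -0.20 to 0.32, *Cpt1b* -0.27 to 0.09, *Crat* -0.04 to 0.37, *Acadl* -0.05 to 0.24, *Acadm* -0.07 to 0.19, *Acads* -0.14 to 0.08, *Hadha* -0.02 to 0.14, *Hadhb* -0.23 to 0.03, *Hadh* -0.09 to 0.26, *Acaa2* -0.21 to 0.37, *Eci1* -0.06 to 0.28, *Decr1* -0.21 to 0.14, *Decr2* -0.17 to 0.14, *Etfa* -0.13 to 0.13, *Etfb* -0.22 to 0.20, *Etfdh* -0.15 to 0.01, *Acox2* -1.70 to 0.26, *Ehhadh* -0.02 to 0.23, *Pex11a* -0.04 to 0.21, *Acot2* -0.20 to 0.69, *Fgf1* -0.03 to 0.45, *Ppargc1a* -0.29 to 0.11.

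Equal replicate numbers correlated at 0.012, 0.263 and 0.376, and WT replicate 1 correlated best with *Esrra*-/- replicate 2 (0.182), so the numbers were not taken to pair the animals. With the replicate number as a block the members called were again *Acat1* (adjusted p = 0.0823) and *Acot12* (adjusted p = 0.0749, limma). Depth could not be recovered from FPKM, and *Acsl4* was too low to test.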
